A study of Mus musculus with 12 samples.

Results

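The lysyl oxidases and the collagen modifying enzymes described here are 10 genes: the 5 lysyl oxidases Lox, Loxl1, Loxl2, Loxl3 and Loxl4, the 3 lysyl hydroxylases Plod1, Plod2 and Plod3, the prolyl 4-hydroxylase subunit gene P4ha1, and Serpinh1. They were taken by gene symbol from a count table of 36512 genes, each symbol matched 1 row, and all 10 had enough counts to be tested. The RNA, selected by its poly(A) tail, came from cells that were sorted from the aorta and its attached perivascular fat. The donors were wild type CD-1 mouse pups, 3 days old, males and females mixed, with no treatment named. There were 4 sorted populations with 3 libraries each, labelled progenitor cells, intermediate cells, preadipocytes and smooth muscle cells (SMC). The tissue was digested with Collagenase D and Dispase II before the sort in every group, and the labels give neither the gates nor the number of pups pooled in a library.

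Collagen chains are modified inside the cell before they fold into a triple helix. Prolyl 4-hydroxylase, whose catalytic alpha subunit P4ha1 encodes, makes the hydroxyproline that keeps the helix stable, and the lysyl hydroxylases make the hydroxylysine on which sugars and strong cross-links are built. Serpinh1 encodes HSP47, a chaperone of the endoplasmic reticulum that binds folded procollagen. Outside the cell the copper-dependent lysyl oxidases turn lysines of collagen and elastin into aldehydes that form covalent cross-links, which give the aortic wall its strength and recoil.

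In the RefSeq promoter table (build GRCm38.p6), 5 of the 10 genes had an entry: Plod1, Plod3, Serpinh1, P4ha1 and Loxl4. The 250 bases upstream of the start are printed for all 5, to show which letters of common promoter motifs they share. Capitals mark the letters of 5 motifs searched on both strands: the hypoxia response core ACGTG, the CCAAT box, the GC box GGGCGG, the TATA box TATAAA and the paired heat shock element GAANNTTC. The windows are chr7:99353240-99353489 on the minus strand for Serpinh1, chr4:147936777-147937026 on the minus strand for Plod1, chr19:42612807-42613056 on the minus strand for Loxl4, chr10:59323046-59323295 on the plus strand for P4ha1 and chr5:136986769-136987018 on the plus strand for Plod3.
Serpinh1: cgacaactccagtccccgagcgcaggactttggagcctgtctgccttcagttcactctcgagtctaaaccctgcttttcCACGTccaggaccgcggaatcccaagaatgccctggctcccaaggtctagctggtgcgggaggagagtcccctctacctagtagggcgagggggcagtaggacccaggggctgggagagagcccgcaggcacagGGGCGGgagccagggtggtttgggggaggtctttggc
P4ha1: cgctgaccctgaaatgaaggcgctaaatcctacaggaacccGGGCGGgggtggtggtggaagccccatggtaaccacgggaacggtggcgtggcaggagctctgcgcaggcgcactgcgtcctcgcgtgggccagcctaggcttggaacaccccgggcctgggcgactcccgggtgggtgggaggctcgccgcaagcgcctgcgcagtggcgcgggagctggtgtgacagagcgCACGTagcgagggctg
Plod3: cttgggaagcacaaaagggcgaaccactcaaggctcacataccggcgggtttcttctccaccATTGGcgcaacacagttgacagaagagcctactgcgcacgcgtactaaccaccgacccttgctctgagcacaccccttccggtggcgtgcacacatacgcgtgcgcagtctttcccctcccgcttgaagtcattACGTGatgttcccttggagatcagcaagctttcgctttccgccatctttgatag
Plod1: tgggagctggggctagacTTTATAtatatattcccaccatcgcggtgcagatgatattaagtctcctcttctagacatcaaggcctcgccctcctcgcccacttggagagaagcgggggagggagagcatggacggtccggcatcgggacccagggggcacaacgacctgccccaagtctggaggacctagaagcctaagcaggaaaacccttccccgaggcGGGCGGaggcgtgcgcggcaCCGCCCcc
Loxl4: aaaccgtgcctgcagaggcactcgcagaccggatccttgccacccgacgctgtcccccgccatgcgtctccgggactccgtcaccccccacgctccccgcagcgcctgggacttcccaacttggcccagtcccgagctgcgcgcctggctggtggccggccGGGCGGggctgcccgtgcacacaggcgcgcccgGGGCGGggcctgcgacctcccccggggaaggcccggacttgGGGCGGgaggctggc
The hypoxia response core stood once each in the Serpinh1, P4ha1 and Plod3 windows and in neither the Plod1 nor the Loxl4 window. It is in 16.6% of all 32841 windows of that length. The GC box, in 32.7% of all windows, was found once each in Serpinh1 and P4ha1, 2 times in Plod1, 3 times in Loxl4 and not in Plod3. Plod3 had 1 CCAAT box (33.9% of all windows), Plod1 had 1 TATA box (12.4%), and none of the 5 windows had the paired heat shock element (6.7%). These are matches of letters, not sites of binding.

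Libraries held 11701825 to 17123109 counts. Counts were scaled with TMM, and levels are given as CPM, counts relative to the scaled library total. Tests were edgeR's quasi-likelihood tests in 1 model of all 12 libraries, with p-values adjusted by the Benjamini-Hochberg method over 21285 genes and calls at 0.05. Whether the 3 libraries of a population stem from different litters or different sorts is unstated, and the p-values reflect only how far these libraries spread, which may be technical. Progenitor, preadipocyte and smooth muscle libraries held their own markers. The summed progenitor markers were at 3070 to 3570 CPM in progenitor libraries and the preadipocyte markers at 4870 to 7890 in preadipocyte libraries. The smooth muscle markers were at 6510 to 7120 in smooth muscle libraries. Progenitor libraries also held preadipocyte markers at 1860 to 1910 CPM, against 311 to 367 in intermediate and 111 to 125 in smooth muscle libraries. Dpp4, a listed progenitor marker, had means of 93.06 CPM in progenitor and 76.17 CPM in smooth muscle libraries. No marker list was used for intermediate cells, whose libraries held smooth muscle markers at 698 to 997 CPM and progenitor markers at 645 to 680 CPM. Markers of other cells stood in some libraries. All 5 mesothelial markers had counts in smooth muscle libraries, summing to 1070 to 1450 CPM against at most 174 CPM in any other library, and 5 red blood cell markers summed to 15800 CPM in preadipocyte replicate 3 against 981.2 and 1234 CPM in the other preadipocyte libraries, 93.5 to 295 CPM in progenitor libraries and at most 29.1 CPM in intermediate and smooth muscle libraries. Schwann cell markers summed to 102 to 126 CPM in smooth muscle libraries and at most 20.7 CPM elsewhere, while endothelial and leukocyte markers summed to at most 147 and 31.8 CPM in any library. Smooth muscle libraries had counts for 35115 to 35570 genes and the others for 26418 to 33337. The part of these differences in the results below was not tested. In sorted bulk samples, fewer cells of a type and less RNA per cell cannot be told apart.

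All 10 genes differed among the 4 populations by the F test over all 4 (adjusted p from 1.56e-09 for P4ha1 to 0.00467 for Plod3), where 79.8% of all genes tested were called. With library size alone 9 of the 10 were called, as were 17889 of all 21285 genes. Their highest mean level was in intermediate libraries for 6 genes (Lox, Loxl1, Loxl2, Plod1, Plod2 and Serpinh1) and in progenitor libraries for the other 4, with no gene highest in smooth muscle libraries. The lowest mean was in preadipocyte libraries for 9 of 10 genes. The exception was Plod3, which was lowest in smooth muscle libraries and which, by library size alone, was highest in preadipocyte libraries.

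**Figure D1:**
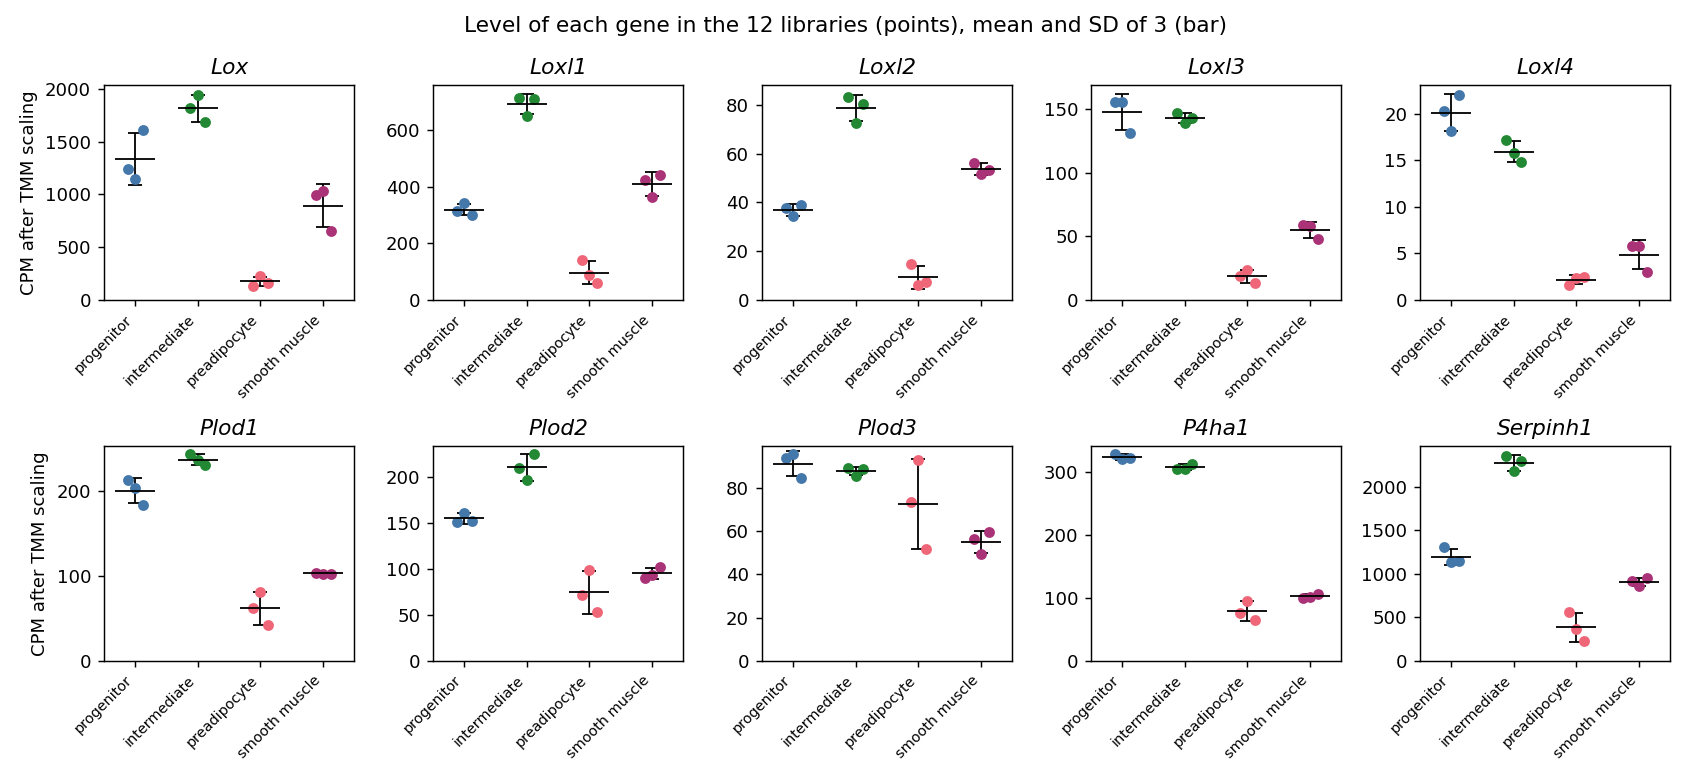
Level of each of the 10 genes in every library, as CPM after TMM scaling on a linear axis that starts at 0, with 1 point per library and a bar for the mean and SD of 3 libraries. Preadipocyte libraries have the lowest mean for 9 genes, while for Plod3 the preadipocyte points span 51.6 to 93.1 CPM and overlap those of the other populations.

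Lox, the founding lysyl oxidase, had the highest mean level per kb of exon of the 5 oxidase genes in every population, for example 278.9 CPM per kb in progenitor libraries against 96.9 for Loxl1. It stood at 1241, 1145 and 1611 CPM in progenitor, 1817, 1947 and 1689 CPM in intermediate, 136.5, 227.4 and 163.4 CPM in preadipocyte and 995.9, 1034 and 656 CPM in smooth muscle libraries. The preadipocyte libraries lay far below all others, and no pair of populations overlapped. Lox was 7.58-fold lower in preadipocyte than in progenitor libraries (log2 fold change -2.92 ± 0.22, SE, adjusted p = 2.26e-08) and 10.35-fold lower than in intermediate libraries (adjusted p = 4.18e-09). Smooth muscle libraries held less Lox than intermediate libraries, by 2.02-fold (adjusted p = 0.00121). Between intermediate and progenitor libraries the log2 difference was 0.45 ± 0.20 and was not called (adjusted p = 0.109), although it was called at 0.53 (adjusted p = 0.00275) in a fit of those 6 libraries alone and at 0.57 (adjusted p = 0.0346) over genes with at least 5 CPM in 3 libraries. The smooth muscle difference from progenitor, -0.57 ± 0.20 (adjusted p = 0.0269), was lost without smooth muscle replicate 3 (adjusted p = 0.103), without progenitor replicate 3 (adjusted p = 0.101), over genes with at least 5 CPM in 3 libraries (adjusted p = 0.125) and with library size alone (log2 difference -0.12, adjusted p = 0.613).

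Loxl1, which acts on elastin and is needed to maintain elastic fibres, was at 314.9, 341.8 and 301.5 CPM in progenitor, 712.3, 651.4 and 710.9 CPM in intermediate, 139.9, 87.1 and 60.7 CPM in preadipocyte and 424.6, 362.5 and 442.4 CPM in smooth muscle libraries. The 4 populations did not overlap. Intermediate libraries stood highest, 2.17-fold above progenitor libraries (adjusted p = 0.00148) and, as fitted, 1.68-fold above smooth muscle libraries (adjusted p = 0.0142). This last call was lost without smooth muscle replicate 2 (adjusted p = 0.0635) and with library size alone (log2 difference -0.26, adjusted p = 0.31). Smooth muscle and progenitor libraries, neighbours in the order, differed by 0.37 ± 0.21 on the log2 scale, which was not called (adjusted p = 0.156). The sign of this difference turned in the fit without a filter (-0.12). The difference was called with library size alone (0.81, adjusted p = 0.00542) and over genes with at least 5 CPM (0.56, adjusted p = 0.0418). It was also called in the fit of those 6 libraries alone (0.38, adjusted p = 0.00574) and without preadipocyte replicate 3 (0.33, adjusted p = 0.0459).

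Loxl2, an oxidase that acts on collagen IV of basement membranes among other substrates, had the same order of populations at a lower level per kb, 14.6 CPM per kb in intermediate libraries against 209.7 for Loxl1. Its libraries held 37.8, 34.2 and 38.9 CPM in progenitor, 83.1, 72.5 and 80.4 CPM in intermediate, 14.7, 6.10 and 7.28 CPM in preadipocyte and 56.2, 51.6 and 53.3 CPM in smooth muscle samples. No populations overlapped, and preadipocyte replicate 1 stood above the other 2 preadipocyte libraries. Loxl2 was 2.13-fold higher in intermediate than in progenitor libraries (adjusted p = 0.00255) and 8.39-fold lower in preadipocyte than in intermediate libraries (adjusted p = 3.14e-08). Smooth muscle libraries lay between, at 0.54 ± 0.22 above progenitor (adjusted p = 0.0502) and -0.55 ± 0.22 from intermediate on the log2 scale (adjusted p = 0.0774). Neither was called as reported. The first was called in 6 of the 7 alternatives that kept all replicates, all but the fit without a filter (adjusted p = 0.00074 to 0.0427), and the second was called without a filter (-0.81, adjusted p = 0.00538) and in the fit of those 6 libraries alone (-0.59, adjusted p = 0.000163). Without any 1 preadipocyte replicate both were called (adjusted p = 0.00289 to 0.0257 for the first and 0.00221 to 0.0266 for the second), and the second was also called without progenitor replicate 2 or intermediate replicate 2 or 3 (adjusted p = 0.0214 to 0.0374).

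Loxl3 and Loxl4, which with Loxl2 carry scavenger receptor domains before the oxidase domain, had another pattern. Loxl3 was at 155.9, 155.5 and 131.4 CPM in progenitor and 147.1, 138.8 and 143 CPM in intermediate libraries, which overlapped. It was at 58.8, 58.4 and 47.7 CPM in smooth muscle and at 19, 23.5 and 13.2 CPM in preadipocyte libraries, below both. The log2 difference of intermediate from progenitor was -0.04 ± 0.17 (adjusted p = 0.868), while smooth muscle libraries were 2.67-fold lower than progenitor libraries (adjusted p = 6.46e-06) and preadipocyte libraries 7.95-fold lower (adjusted p = 3.09e-09). Loxl4 had the lowest mean level per kb of the 5, 4.77 CPM per kb in progenitor libraries, and stood at 20.2, 18.1 and 22 CPM in progenitor, 17.2, 15.8 and 14.9 CPM in intermediate, 5.84, 5.76 and 3.02 CPM in smooth muscle and 1.62, 2.42 and 2.5 CPM in preadipocyte libraries. Its counts ran from 30 to 329 per library. Preadipocyte libraries were 9.22-fold below progenitor libraries (adjusted p = 4.25e-08), and smooth muscle libraries 4.10-fold below (adjusted p = 4.32e-06). Receptor genes of sensory neurons, which these cells should not use, were counted at 0.141 to 0.198 CPM per kb of exon in smooth muscle and 0.00813 to 0.0849 in the other libraries. Over the exonic length of Loxl4 that rate comes to 0.594 to 0.836 CPM in smooth muscle libraries, against the 3.02 to 5.84 CPM measured.

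Divided by exonic length, the 5 oxidases together held 639.5 ± 18.3 CPM per kb (SD, n = 3) in intermediate, 419.4 ± 44.0 in progenitor, 334.7 ± 37.1 in smooth muscle and 72.1 ± 12.8 in preadipocyte libraries. Lox made up 66.1% ± 5.13 of this sum in progenitor, 59.4% ± 2.73 in intermediate, 51.7% ± 13.1 in preadipocyte, against 55.5% ± 7.67 in smooth muscle libraries, and Loxl1 made up 23.3% ± 3.65, 32.8% ± 2.33, 39.7% ± 12.6 and 37.6% ± 7.44 in the same order. Such shares do not depend on how libraries are scaled. They were set against an exact permutation test over all 15400 ways to split the 12 libraries into 4 groups of 3. It cannot give a p under 6.49e-05, and p-values were adjusted over the 21 quantities tested in this way. All 21 quantities and the test were added after the member counts had been looked at, which the p-values do not account for. The shares of Lox (adjusted p = 0.199), Loxl1 (0.122) and Loxl2 (0.116) were not called by this exact test. Preadipocyte replicate 1 held 36.5% Lox and 54.2% Loxl1, unlike replicates 2 and 3 at 58.9% and 59.6% Lox. The share of Loxl3 did differ, at 7.75% ± 1.45 in progenitor, 4.86% ± 0.209 in intermediate, 5.53% ± 0.698 in preadipocyte, against 3.57% ± 0.0517 in smooth muscle libraries (exact permutation test, adjusted p = 0.00126), as did that of Loxl4 (1.14% ± 0.0508 to 0.340% ± 0.0818, adjusted p = 0.00127).

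The lysyl hydroxylases spanned a narrower range than the oxidases. Plod1, which hydroxylates lysines in the helix of collagen, was at 213.5, 204.2 and 184.5 CPM in progenitor, 243.8, 237.4 and 230.6 CPM in intermediate, 62.5, 80.8 and 42.4 CPM in preadipocyte and 104.1, 102.4 and 103 CPM in smooth muscle libraries. It was 3.24-fold lower in preadipocyte (adjusted p = 8.09e-07) and 1.94-fold lower in smooth muscle than in progenitor libraries (adjusted p = 0.000316). Plod2, which hydroxylates the telopeptides where cross-links start, was at 150.6, 160.9 and 152.3 CPM in progenitor, 209.2, 195.8 and 224.9 CPM in intermediate, 71, 98.8 and 53 CPM in preadipocyte and 89.6, 93.5 and 101.8 CPM in smooth muscle libraries. Preadipocyte and smooth muscle libraries overlapped and were not called different (log2 difference 0.36 ± 0.17, adjusted p = 0.0743). This difference was called with library size alone (0.43, adjusted p = 0.0193), over genes with at least 5 CPM in 3 libraries (0.43, adjusted p = 0.0138) and without preadipocyte replicate 2 (0.59, adjusted p = 0.00211), and its sign turned without a filter (-0.07). Both populations stood below progenitor libraries, by 2.08-fold (adjusted p = 8.68e-05) and 1.62-fold (adjusted p = 0.00318), the last call being lost with library size alone (adjusted p = 0.158). Intermediate libraries were above progenitor libraries by 0.44 ± 0.17 on the log2 scale, which was not called (adjusted p = 0.0644) but was called in the fit of those 6 libraries alone (0.52, adjusted p = 0.000284), over genes with at least 5 CPM in 3 libraries (0.57, adjusted p = 0.0071) and without preadipocyte replicate 2 (adjusted p = 0.0162) or 3 (adjusted p = 0.0143).

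Plod3, which also carries the glucosyltransferase activity that finishes the sugar on hydroxylysine, was the member that differed least. Its libraries held 93.7, 95.6 and 84.6 CPM in progenitor, 89.4, 85.7 and 88.8 CPM in intermediate, 73.6, 93.1 and 51.6 CPM in preadipocyte and 56.2, 49.4 and 59.6 CPM in smooth muscle samples. The preadipocyte libraries spread across the range of all other populations. Their log2 difference from progenitor libraries was -0.33 ± 0.17 and was not called (adjusted p = 0.12), it was called at -0.55 without preadipocyte replicate 2 (adjusted p = 0.00793), and its sign turned with library size alone (0.05). Smooth muscle libraries were 1.65-fold lower than progenitor libraries (adjusted p = 0.00235), and 1.59-fold lower than intermediate libraries (adjusted p = 0.00715), calls that were both lost with library size alone (adjusted p = 0.123 and 0.305).

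As shares of the hydroxylase counts per kb, Plod1, Plod2 and Plod3 stood at 37.8% ± 1.39, 36.5% ± 1.62 and 25.7% ± 0.44 in progenitor libraries. In preadipocyte libraries they stood at 23.4% ± 0.56, 35.3% ± 1.07 and 41.4% ± 0.805. The Plod3 share was 40.5% to 42.1% in the 3 preadipocyte libraries and at most 28% in any other library, with intermediate libraries lowest at 20.8% ± 0.213 (exact permutation test, adjusted p = 0.000682). The Plod1 share differed as well (adjusted p = 0.00125), as did that of Plod2 (adjusted p = 0.00418), which was highest in intermediate libraries at 41.6% ± 1.84. The summed level of the 3 genes was 78.6 ± 3.77 CPM per kb in progenitor, 93.5 ± 2.71 in intermediate and 45.1 ± 2.01 in smooth muscle libraries, and 38.7, 50.9 and 27.5 in the 3 preadipocyte libraries.

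**Figure D2:**
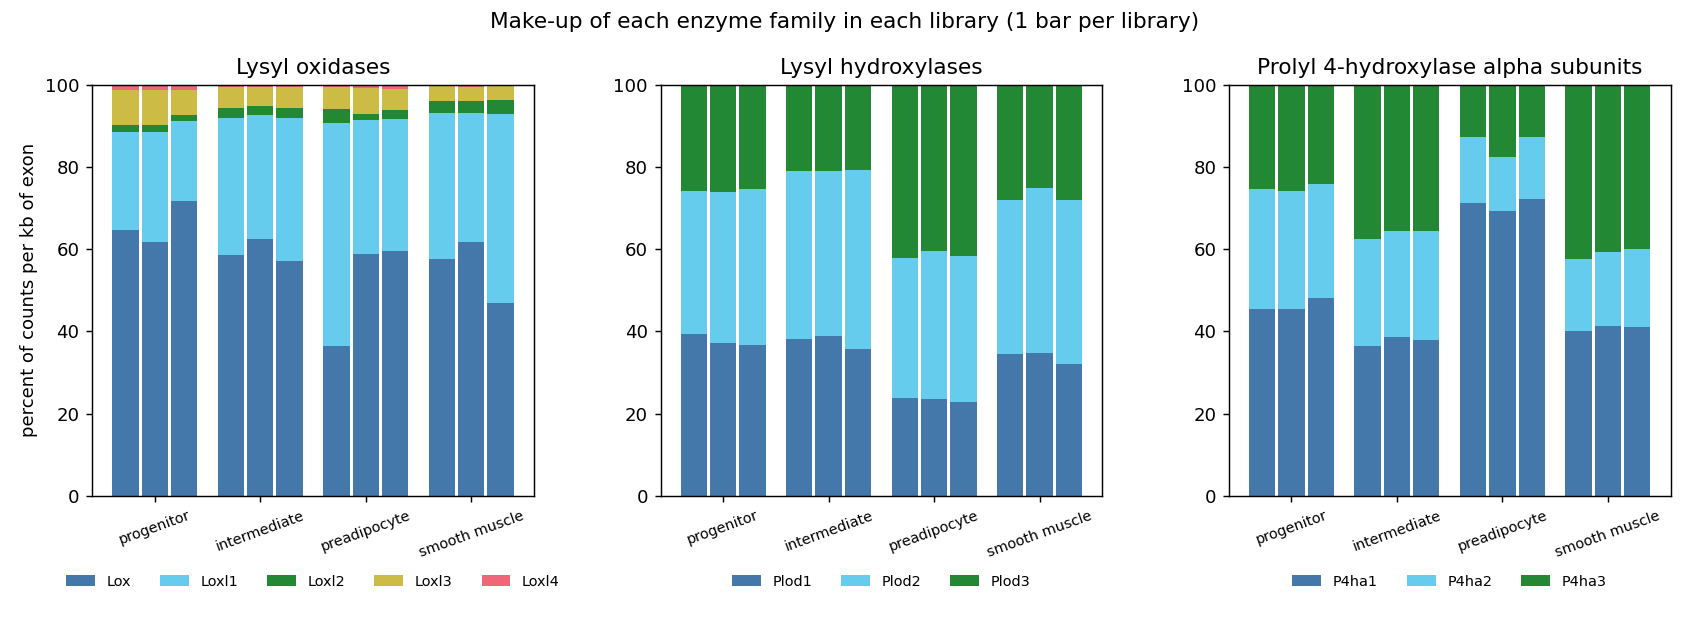
Make-up of the lysyl oxidases, the lysyl hydroxylases and the prolyl 4-hydroxylase alpha subunits in each library, as a percent of the family's counts per kb of exon, with 1 stacked bar per library. Plod3 takes 40.5% to 42.1% of the hydroxylase counts in preadipocyte libraries, and the Lox share in preadipocyte replicate 1 is 36.5% against 58.9% and 59.6% in the other preadipocyte libraries.

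P4ha1 stood at 329, 320.7 and 322.2 CPM in progenitor, 304.9, 305.1 and 313.3 CPM in intermediate, 76, 95.8 and 65.1 CPM in preadipocyte and 99.4, 102.2 and 106 CPM in smooth muscle libraries. Progenitor and intermediate libraries were high and close together, with a log2 difference of -0.07 ± 0.13 (adjusted p = 0.709). P4ha1 was 4.10-fold lower in preadipocyte (adjusted p = 7.13e-09) and 3.15-fold lower in smooth muscle than in progenitor libraries (adjusted p = 7.79e-08). Smooth muscle libraries were above preadipocyte libraries by 0.38 ± 0.13 on the log2 scale (adjusted p = 0.0176), but this value was 0.26 with DESeq2 (adjusted p = 0.11), 0.28 with its size factors in edgeR (adjusted p = 0.0595), 0.18 in the fit of those 6 libraries alone (adjusted p = 0.308) and -0.06 without a filter (adjusted p = 0.788). It was also lost without any 1 of 8 libraries, at 0.07 without an intermediate replicate or progenitor replicate 2 (adjusted p = 0.656 to 0.686) and at 0.22 to 0.37 without preadipocyte replicate 1 or 3 or smooth muscle replicate 2 or 3 (adjusted p = 0.0508 to 0.135).

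The other alpha subunit genes, P4ha2 and P4ha3, were chosen for this comparison of shares after their values were seen, so no test is given. P4ha1 made up 46.4% ± 1.6 of the alpha subunit counts per kb in progenitor, 37.6% ± 1.09 in intermediate, 70.9% ± 1.48 in preadipocyte, against 40.8% ± 0.633 in smooth muscle libraries. P4ha3 made up 25.1% ± 0.925, 36.3% ± 1.1, 14.3% ± 2.86 and 40.9% ± 1.28 in the same order, and P4ha2 made up 28.5% ± 0.745, 26.1% ± 0.383, 14.8% ± 1.5 and 18.2% ± 0.812.

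Serpinh1 was at 1303, 1133 and 1148 CPM in progenitor, 2350, 2175 and 2298 CPM in intermediate, 554.6, 365.1 and 229.4 CPM in preadipocyte and 913.2, 858.8 and 946.3 CPM in smooth muscle libraries. No populations overlapped, and intermediate libraries stood highest. They were 1.91-fold above progenitor libraries (adjusted p = 0.00601), a call that was lost without progenitor replicate 2 (log2 difference 0.73, adjusted p = 0.0514). Preadipocyte libraries were 5.94-fold below intermediate (adjusted p = 1.15e-07) and 3.12-fold below progenitor libraries (adjusted p = 1.37e-05). Smooth muscle libraries were below intermediate libraries by a log2 difference of -1.32 (adjusted p = 0.00024). Their log2 difference from progenitor libraries was -0.39 ± 0.22 (adjusted p = 0.139), which turned to 0.05 with library size alone. It was called at -0.88 without a filter (adjusted p = 0.00112), at -0.38 in the fit of those 6 libraries alone (adjusted p = 0.00367), at -0.76 to -0.79 without progenitor replicate 2 or any 1 intermediate replicate (adjusted p = 0.00851 to 0.0134), and at -0.43 without preadipocyte replicate 1 or 3 (adjusted p = 0.0257 and 0.00722).

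Counted over the comparisons, 9 of the 10 genes were lower in preadipocyte than in progenitor libraries and Plod3 was not called. Of all genes tested 50.9% were called in that comparison, 25.1% higher and 25.9% lower. The libraries did not overlap for 9 of the 10, as for 54.8% of all genes. The median log2 fold change of the 10 was -1.86, against 0.04 over all genes. The number called was 9 with library size alone, where 11630 of 21285 genes were called. It was also 9 without preadipocyte replicate 3 (10711 of 23245 genes called) and in a fit of the 6 libraries alone (9614 of 17005). Against intermediate libraries the preadipocyte libraries were also lower in 9 of 10 genes (57.1% of all genes called, 26.0% higher and 31.1% lower) and did not overlap in 9 (60.4% of all genes), with a median of -2.71 against -0.24 over all genes. These comparisons share the preadipocyte libraries. The summed red blood cell markers, at 981 to 15800 CPM in preadipocyte libraries against at most 295 CPM in progenitor and 10.4 CPM in intermediate libraries, moved with both, and their part in the results was not tested.

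In intermediate against progenitor libraries 3 of 10 genes were higher, Loxl1, Loxl2 and Serpinh1, and none was lower (27.6% of all genes called, 14.1% higher and 13.4% lower). The 3 called are near the background share. The libraries did not overlap for 8 of the 10 (49.5% of all genes). The number called was 6 in a fit of the 6 libraries alone, where 7118 of 16552 genes were called. Over genes with at least 5 CPM in 3 libraries 5 were called, where 4766 of 12659 genes were. The median of the 10 was 0.34 against 0.05 over all genes. The sum of the smooth muscle markers moved with these genes, from 43 to 56.5 CPM in progenitor to 698 to 997 CPM in intermediate libraries. Of these 5 markers 4 were called higher and 1 lower, and their part in the result was not tested.

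Smooth muscle libraries were lower than progenitor libraries in 7 of 10 genes and higher in none (54.1% of all genes called, 30.5% higher and 23.6% lower), with Loxl1, Loxl2 and Serpinh1 not called and no overlap of libraries for all 10 (66.5% of all genes). With library size alone 4 were lower and 2 higher, where 2015 of 21285 genes were lower and 9683 higher. In a fit of the 6 libraries alone 8 were lower and 2 higher, where 5525 of 19641 genes were lower and 6754 higher. Against intermediate libraries 9 of 10 were lower, all except Loxl2 (28.8% of all genes called, 15.7% higher and 13.1% lower). The libraries did not overlap for all 10 (50.9% of all genes). With library size alone 7 were lower, where 1133 of 21285 genes were lower and 9321 higher. Against preadipocyte libraries 8 of 10 were higher and Plod3 was lower (66.6% of all genes called, 40.7% higher and 25.9% lower), with no overlap for 8 (68.4% of all genes). The summed mesothelial markers, at 1070 to 1450 CPM in smooth muscle and 6.94 to 174 CPM in the other libraries, moved with these 3 comparisons, and their part in the results was not tested. The Plod3 call, with an adjusted p of 0.0497, was lost with library size alone, with a replicate block, over genes with at least 5 CPM in 3 libraries and without any 1 of 4 libraries, preadipocyte replicate 1 or 2 or smooth muscle replicate 1 or 2 (adjusted p = 0.0541 to 0.226). With library size alone 9 genes were higher and none lower, where 8975 of all 21285 genes were higher and 5304 lower. Without a filter the Plod1 call was lost, its log2 difference going from 0.743 to 0.305 (adjusted p = 0.155), as was that of P4ha1. In that fit 9720 of 36512 genes were higher and 7812 lower.

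**Figure D3:**
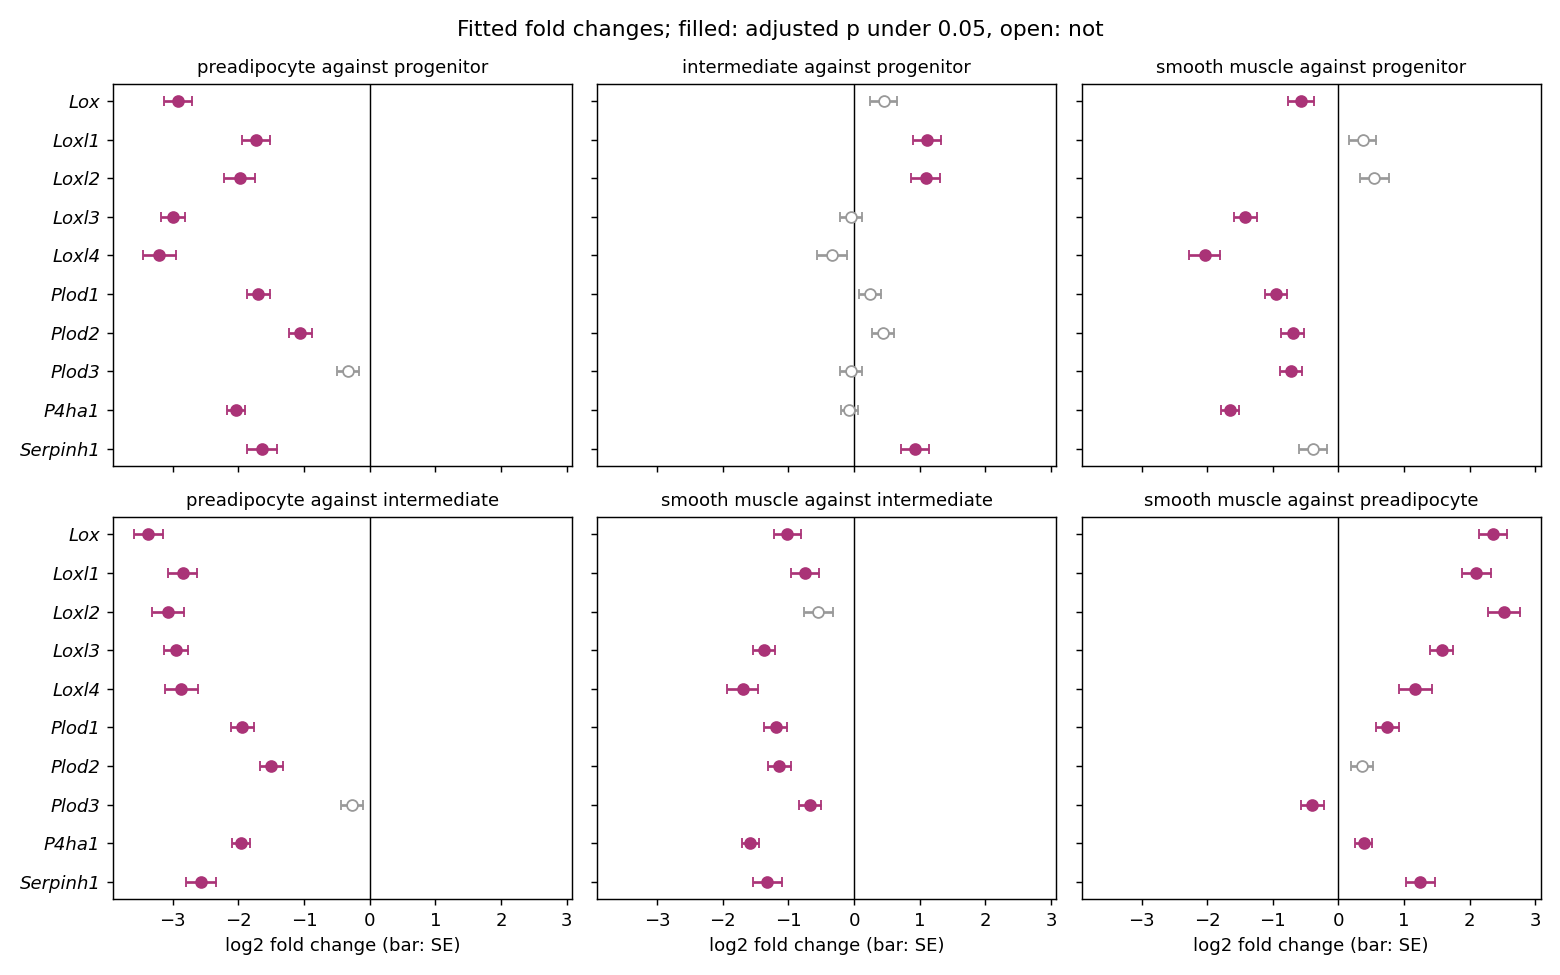
Fitted log2 fold change of each gene in the 6 pairwise comparisons, with the SE as a bar, filled points for an adjusted p under 0.05 and open points for the rest. Preadipocyte libraries are lower in 9 of 10 genes against progenitor and against intermediate libraries, and Plod3 lies nearest to 0 in both.

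The substrates differed widely among the populations. Col1a1, Col1a2 and Col3a1, which encode the chains of collagens I and III, summed to 168100 ± 8340 CPM in progenitor, 236400 ± 10500 in intermediate, 15220 ± 3550 in preadipocyte, against 28370 ± 1410 in smooth muscle libraries. For each 1000 counts of these 3 genes, Lox was counted 7.20, 7.22 and 9.29 times in progenitor, 7.59, 7.95 and 7.51 times in intermediate, 7.53, 14.0 and 14.5 times in preadipocyte and 37.2, 35.1 and 22.7 times in smooth muscle libraries. Smooth muscle libraries were apart from all others on this ratio, and progenitor and intermediate libraries overlapped (exact permutation test over the 4 populations, adjusted p = 0.00418). Loxl1 stood at 1.91 ± 0.22, 2.93 ± 0.254, 6.15 ± 1.35 and 14.5 ± 1.92 per 1000 in the order progenitor, intermediate, preadipocyte, smooth muscle (exact permutation test, adjusted p = 0.000195). Serpinh1 stood at 7.11 ± 0.473, 9.64 ± 0.689, 24.5 ± 5.4 and 32.0 ± 2.57 per 1000 (exact permutation test, adjusted p = 0.00125). Plod1, Plod2, Plod3 and P4ha1 had their highest mean ratio in preadipocyte libraries. Plod3 was at 0.545 ± 0.0578, 0.373 ± 0.0226, 4.79 ± 0.852 and 1.95 ± 0.236 per 1000 in the same order (exact permutation test, adjusted p = 0.000195), Plod2 at 0.922 ± 0.0805, 0.891 ± 0.102, 4.90 ± 1.09 and 3.35 ± 0.177, and P4ha1 at 1.93 ± 0.0849, 1.30 ± 0.079, 5.29 ± 0.951 and 3.62 ± 0.131. The Plod1 ratio, 4.06 ± 0.805 in preadipocyte and 3.64 ± 0.215 in smooth muscle libraries, overlapped between them. Of the 10 ratios only that of Loxl4 was not called (0.0674 ± 0.00386 to 0.173 ± 0.06, exact permutation test, adjusted p = 0.0961). These ratios and their test were also added after the member counts had been looked at.

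**Figure D4:**
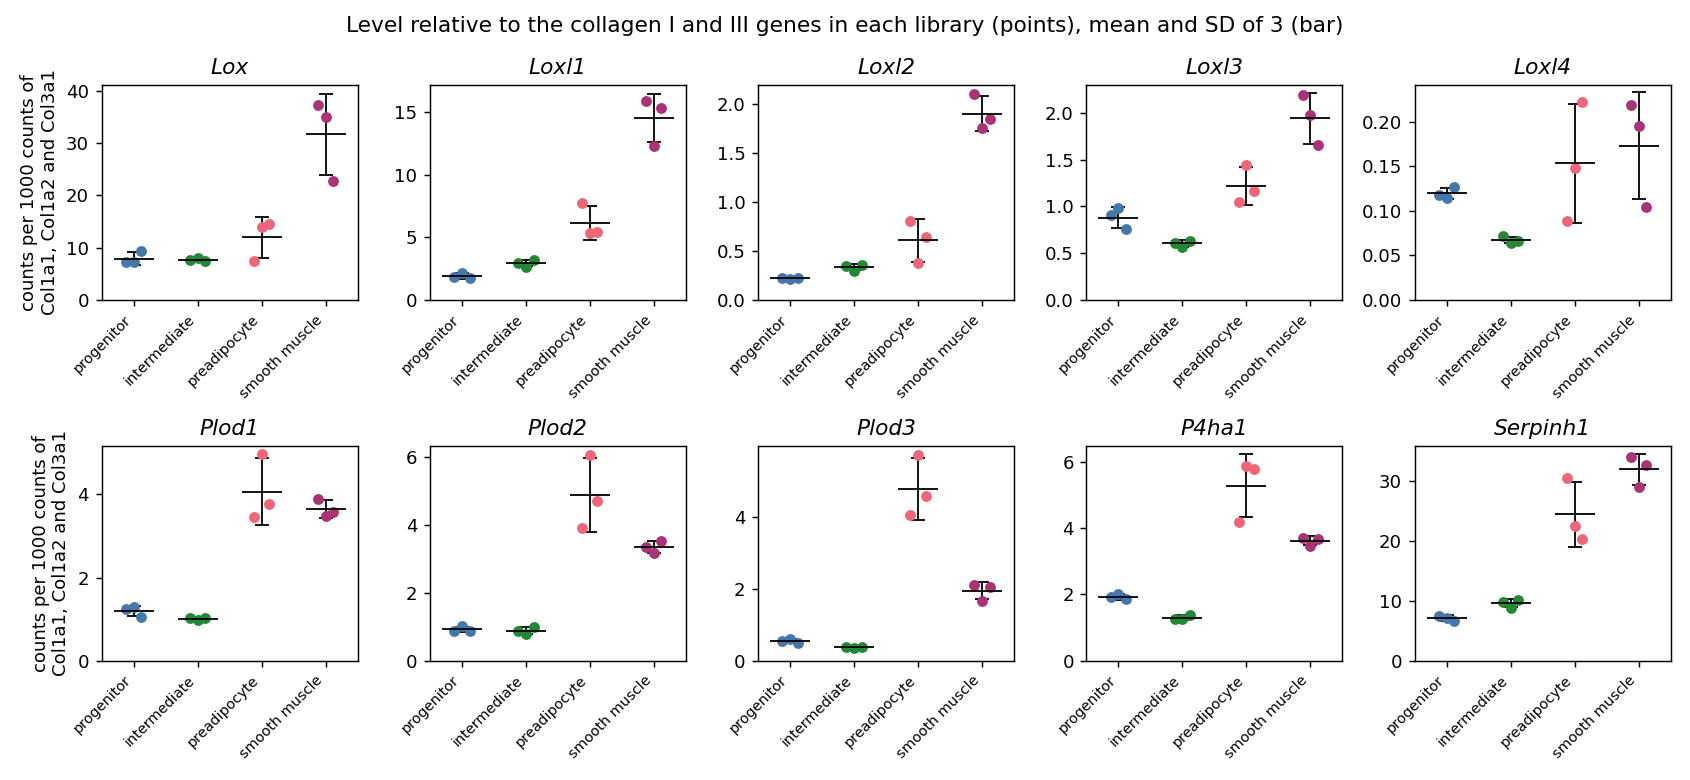
Counts of each gene per 1000 counts of Col1a1, Col1a2 and Col3a1 in every library, on linear axes from 0, with 1 point per library and a bar for the mean and SD of 3. Lox, Loxl1 and Loxl2 are highest in smooth muscle libraries, Plod3 is highest in preadipocyte libraries, and none of the 10 genes has its highest mean in intermediate libraries.

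Elastin, the other substrate of the oxidases, took another course. Eln was at 4569 ± 346 CPM in progenitor, 18230 ± 1840 in intermediate, 1587 ± 749 in preadipocyte, against 58450 ± 7540 in smooth muscle libraries. For each 1000 counts of Eln, a ratio chosen after the values were seen and given without a test, Lox was counted 290.1 ± 31.0 times in progenitor, 100.1 ± 8.65 in intermediate, 118.3 ± 30.2 in preadipocyte, against 15.3 ± 3.1 in smooth muscle libraries. Loxl1 was counted 70.3 ± 9.11, 38.2 ± 4.43, 68.35 ± 40.2 and 7.08 ± 1.14 times.

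Partners of the members in prolyl hydroxylation were mostly lower outside progenitor and intermediate libraries. Of 9 genes, 8 were lower and P3h2 was higher in preadipocyte than in progenitor libraries (25.9% of all genes lower, 25.1% higher), with a median of -1.54 against 0.04 over all genes. The same counts held for smooth muscle against progenitor libraries (23.6% of all genes lower, 30.5% higher), with a median of -1.01 against 0.09. P4ha2, a second alpha subunit, was at 302.5 ± 20 CPM in progenitor, 324.5 ± 13.1 in intermediate, 24.7 ± 3.53 in preadipocyte, against 69.5 ± 4.81 in smooth muscle libraries, and P4ha3 was at 133.9 ± 9.76, 226.5 ± 12.4, 12.5 ± 5.28 and 78.25 ± 1.69 CPM. P3h1, a prolyl 3-hydroxylase, was at 269.1 ± 22, 296.9 ± 27.3, 74.0 ± 24.4 and 108.8 ± 10.6 CPM, and Ppib, the cyclophilin that works with it, was at 112.5 ± 3.02, 104.4 ± 11, 48.0 ± 7.3 and 45.55 ± 4.97 CPM. P3h2, named after its values were seen, went the other way at 2.92 ± 1.32, 13.4 ± 1.78, 6.09 ± 1.93 and 16.7 ± 4.51 CPM.

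All 6 genes of hydroxylysine glycosylation and prolyl isomerisation were lower in preadipocyte and in smooth muscle than in progenitor libraries, with medians of -2.0 and -1.31, where 25.9% and 23.6% of all genes were lower. None of them was called between intermediate and progenitor libraries (27.6% of all genes). Among them Fkbp10, an isomerase that helps Plod2, was at 454.1 ± 12.1, 520.3 ± 31.8, 112.1 ± 26.2 and 231.4 ± 5.15 CPM in the order progenitor, intermediate, preadipocyte, smooth muscle. Fkbp14, a related isomerase, was at 192.8 CPM in progenitor libraries and, in the others, 211.4 ± 10.8, 36.9 ± 4.85 and 59.0 ± 2.58 CPM, and Fkbp9 was at 1356 ± 94.5, 1649 ± 65, 340.4 ± 74.4 and 440.6 ± 5.57 CPM. Of 9 genes of procollagen export, 6 were lower and 2 higher in preadipocyte than in progenitor libraries, and 7 were lower and 1 higher in smooth muscle libraries, beside the same shares over all genes. Creb3l1, a transcription factor that drives collagen secretion, was at 224 ± 19.6, 415.8 ± 13.7, 31.25 ± 7.37 and 79.65 ± 12.9 CPM, and was the only gene of this list called between intermediate and progenitor libraries (log2 fold change 0.89). Sparc, a collagen-binding matrix protein, was at 19800 ± 1560, 20830 ± 1700, 2482 ± 455 and 6923 ± 1060 CPM across those populations. The genes called higher, named after their values were seen, were Klhl12 (0.94) and Mia2 (0.37) in preadipocyte and Tmem38b (1.68) in smooth muscle against progenitor libraries, as log2 fold changes. Klhl12 stood at 26.8, 40.7 and 67.9 CPM in preadipocyte and 27.6, 24.4 and 18.8 CPM in progenitor libraries, which overlapped.

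Procollagen proteinases and their enhancers were lower in 7 of 8 cases in preadipocyte against progenitor libraries, where 25.9% of all genes were lower. Adamts2, which trims the N-terminal propeptide, was at 1236 ± 77.6 CPM in progenitor, 2205 ± 57.4 in intermediate, 97.8 ± 19.8 in preadipocyte, against 692.1 ± 35.7 in smooth muscle libraries. Bmp1, which trims the C-terminal propeptide and also activates the Lox proenzyme, was at 712.7 ± 90.4, 681.9 ± 27.6, 133.8 ± 32.2 and 255.3 ± 14.2 CPM. Pcolce, an enhancer of that cleavage, was at 1897 ± 162, 1607 ± 112, 292.8 ± 60.5 and 233.9 ± 51.8 CPM. In smooth muscle against progenitor libraries 4 of the 8 were lower and 2 were higher, Tll1 and Tll2, relatives of Bmp1 named here after their values were seen (23.6% of all genes lower, 30.5% higher). Tll1 was at 3.17 ± 1.54, 2.2 ± 1.08, 1.155 ± 0.653 and 15.1 ± 1.18 CPM. Tll2 was far lower, at 0.277 ± 0.123 CPM in progenitor and 1.18 ± 0.167 CPM in smooth muscle libraries. Per kb of exon these means were 0.0584 and 0.249 CPM. The receptor genes of sensory neurons stood at 0.0119 to 0.0256 CPM per kb in progenitor and 0.141 to 0.198 in smooth muscle libraries. The part of that background in the Tll2 call was not tested.

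Cofactor and scaffold genes of the lysyl oxidases fell into 6 lower, 1 higher and 1 not called when preadipocyte was set against progenitor libraries, where 25.9% of all genes were lower and 25.1% higher. Fbln5, which tethers Loxl1 to elastic fibres, was at 1863 ± 24.9 CPM in progenitor, 2597 ± 124 in intermediate, 287.7 ± 95.4 in preadipocyte, against 2409 ± 206 in smooth muscle libraries. Efemp2, which encodes fibulin 4 and brings Lox to tropoelastin, was at 370.5 ± 29.7, 373 ± 34.9, 78.0 ± 14 and 135.6 ± 17.2 CPM. Postn, which encodes periostin, a scaffold for Bmp1 on the matrix, was at 13060 ± 116, 16080 ± 533, 1453 ± 277 and 3042 ± 308 CPM. The gene called higher was Atox1, a copper chaperone, at 72.7 ± 0.727 in progenitor and 91.8 ± 4.06 CPM in preadipocyte libraries, a log2 difference of 0.34 (adjusted p = 0.0451) whose call was lost in 10 of the 12 fits that left out 1 library. Fbln5 was not called between smooth muscle and progenitor libraries (log2 difference 0.38), while Efemp2 was lower by 1.44.

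Genes of the hypoxia response moved both ways, with more lower than higher in intermediate against progenitor libraries. Of 10, 2 were higher and 3 lower in preadipocyte against progenitor libraries, 2 higher and 6 lower in intermediate, and 4 higher and 2 lower in smooth muscle against progenitor libraries. Over all genes 50.9%, 27.6% and 54.1% were called in these comparisons, so the first and last totals are near the background. Of all genes 25.1%, 14.1% and 30.5% were higher, and 25.9%, 13.4% and 23.6% were lower. The median log2 fold change of the 10 in intermediate against progenitor libraries was -0.586, against 0.0461 over all genes. Adm, a secreted peptide, was at 158.1 ± 5.7 CPM in progenitor libraries and at 20.1 ± 1.21 to 32.8 ± 2.47 CPM in the others. Bnip3, a mitophagy receptor, was at 31.5 ± 5.94 CPM in preadipocyte libraries and 2.56 ± 0.69 to 10.35 ± 1.17 CPM in the others. Egln3, a prolyl hydroxylase of the oxygen sensor, was at 33.55 ± 9.3 CPM in smooth muscle libraries and 2.48 ± 0.255 to 5.80 ± 1.33 CPM in the others.

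A search covered 7805 tested genes with a mean log2 CPM of at least 4, leaving out predicted genes and genes with clone-type names. Those whose 4 population means were most like Lox, each taken relative to its own mean, were Pxdc1, Mn1 and C1qtnf6. Their mean absolute differences from Lox were 0.0612, 0.0639 and 0.0903 on the log2 scale. Pxdc1 was at 121.6, 151.5, 16.2 and 83.2 CPM in the order progenitor, intermediate, preadipocyte, smooth muscle. Those most like Serpinh1 were Tbc1d8b, Gli2 and St8sia2, at 0.0374, 0.0604 and 0.0728. Gli2, a transcription factor of the Hedgehog pathway, was at 29.3, 59.5, 8.54 and 21.2 CPM.

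The coordinates of the 10 genes on mm10, from GENCODE M21, run from 52516067 to 52529867 on chromosome 18 for Lox, from 58287738 to 58313186 on chromosome 9 for Loxl1, from 69609068 to 69695834 on chromosome 14 for Loxl2, from 83034173 to 83052562 on chromosome 6 for Loxl3 and from 42593982 to 42612813 on chromosome 19 for Loxl4. Plod1 spans 147909753 to 147936767 on chromosome 4, Plod2 92542223 to 92608428 on chromosome 9, Plod3 136987019 to 136996648 on chromosome 5, P4ha1 59323296 to 59373304 on chromosome 10 and Serpinh1 99345376 to 99353239 on chromosome 7. In 5 of them other annotated genes overlap the exons, over 0.628% of exonic length in Lox, 5.70% in Loxl2, 11.6% in Loxl3 (by Htra2 on the opposite strand), 6.42% in Plod2 and 11.9% in Plod3 (chiefly by Znhit1 on the opposite strand). Since the use of strand in counting is not given in the sources used here, these counts are uncertain to that extent.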

How the data were processed

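Poly(A) RNA of 12 libraries in 4 sorted populations was amplified with a SMART-Seq v4 kit for low input, per the labels' protocols. The submitters' processing notes list mm10, STAR 2.5.2a and DESeq2 1.26.0. Counting tool, annotation and use of strand: not given in the sources used here. Per gene and library, the authors deposited whole-number counts, which were tested as deposited. Normalized and log-transformed tables of the same libraries were not used.

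Genes were filtered with filterByExpr, leaving 21285 of 36512 with 99.33% to 99.89% of counts, then TMM factors and the two-sided glmQLFit and glmQLFTest of edgeR 4.0.16 were applied (R 4.3.3). The common biological coefficient of variation was 0.2. Exonic lengths, positions and names came from GENCODE M21 on mm10. Library totals before TMM scaling put the limit of a count of 0 at 0.175 to 0.256 CPM (3 counts), which covers counting error only.

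The members and lists were chosen with earlier results of these data known. Named were the 10 members, up to 4 genes of each other list with the smallest F test p, and the 3 genes most like Lox and like Serpinh1, besides those said to be chosen after their values were seen. Ratios between genes used raw counts of the same library, and these quantities and their test were added after the member counts had been looked at.

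Every pair of replicates differed beyond sampling noise (chi-square per degree of freedom 3.92 to 70.9). On simulated counts over 21285 genes, preadipocyte against progenitor recovered 41 of the 100 given a 2-fold change and 78 of the 100 given a 4-fold change, with 5 false calls among 124, and smooth muscle against progenitor recovered 49 and 70 of 100, with 8 false calls among 127. Alternatives were other scalings, DESeq2 1.42.0, other filters, a replicate block, fits of the compared populations alone and leaving out each library.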

Additional observations from a re-analysis of the deposited data

How the results depend on the processing

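The 9 genes lower in preadipocyte libraries, against progenitor and against intermediate libraries, kept that count under all 7 alternatives and had 9 to 10 with any 1 library left out. In intermediate against progenitor libraries the count of 3 became 5 over genes with at least 5 CPM in 3 libraries and 6 in the fit of the 6 libraries alone, and was 2 to 4 with 1 library left out, 2 without progenitor replicate 2. In the 3 smooth muscle comparisons the total called stayed within 1.5 times of the reported one. The split of that total changed against progenitor and against preadipocyte libraries, while against intermediate libraries every call stayed lower. Against progenitor libraries 7 lower and 0 higher became 4 lower and 2 higher with library size alone. Over all 21285 genes 2015 were lower and 9683 higher in that setting.

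With library size alone, Plod3 turned to 0.0504 against progenitor and 0.146 against intermediate in preadipocyte libraries, and Serpinh1 to 0.0508 in smooth muscle against progenitor libraries. In intermediate against progenitor libraries, Loxl3, Plod3 and P4ha1 turned to 0.0825, 0.0747 and 0.0544 over genes with at least 5 CPM, and to 0.0312, 0.0236 and 0.00387 in the fit of those libraries alone. Without a filter, Loxl1 turned to -0.12 in smooth muscle against progenitor libraries, and in smooth muscle against preadipocyte libraries Plod2, P4ha1, Fkbp9, Mia3 and P4hb turned to -0.0743, -0.056, -0.0616, -0.0849 and -0.0832. Loxl1 in smooth muscle against progenitor libraries ranged from -0.000594 to 0.435 with 1 library left out, at -0.000594 and -0.000275 without intermediate replicates 1 and 2.

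TMM scales to a reference library, which was progenitor replicate 2 in the reported fit and preadipocyte replicate 3 without a filter, without any 1 intermediate library or without progenitor replicate 2. Over all genes, the median difference (log2) of smooth muscle from progenitor libraries was 0.0906 as reported, -0.395 without a filter and -0.265 to -0.274 in those 4 fits. Library size alone moved it by 0.442. Shares and ratios within a library do not use this scaling.

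Deviations of same-numbered replicates were at most weakly correlated (from -0.163 to 0.207). Whether same-numbered libraries share a source is unstated, and such correlations cannot settle it. In 12 of 36 combinations of a library and another population, the library correlated best with the replicate of its own number. With the replicate number as a block, counts were 9, 3, 8, 9, 9 and 8 in preadipocyte, intermediate and smooth muscle against progenitor, preadipocyte and smooth muscle against intermediate, and smooth muscle against preadipocyte libraries. Of 60 fold changes 58 kept their direction and side of the threshold under this block, Loxl2 being gained at 0.0315 and Plod3 lost at 0.0701. Loxl4, with as few as 30 counts in a library, is the member whose values depth limits most.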
